A study of Mus musculus with 16 samples.

Results

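Toll-like receptors were measured in the spleen of C57BL/6 mice as 10 genes, found by symbol among the 54838 genes of the deposited count table. The 5 receptors that sit at the cell surface were Tlr1, Tlr2, Tlr4, Tlr5 and Tlr6, and the 5 that signal from endosomes were Tlr3, Tlr7, Tlr8, Tlr9 and Tlr13. RNA was sequenced in 16 samples that share 8 numbers, 407, 408, 427 and 435 from males and 436, 445, 447 and 460 from females, and each number names 1 size-selected and 1 whole spleen sample. The size-selected samples are what a cell strainer held back after spleens were minced, digested with enzymes and cleared of red blood cells, and the labels call their source spleen glia. The whole spleen samples carry the same protocol text, and a separate preparation for them is not given in the sources used here. The labels name no mutant allele, treatment or age for either group. The groups share strain and tissue and are labelled by the fraction of the spleen. Whether they also differed in mincing, digestion or clearing of red blood cells is not stated. Nothing says whether a number is 1 animal, so p-values measure the spread between these samples only.

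Total counts were 13119992 to 19944440 in the size-selected samples and 12153770 to 16282454 in whole spleen. As a description of the labelled source, 10 glial markers summed to 77.9 to 584 CPM (read counts scaled to library size) in the size-selected group and 2.76 to 11.0 in whole spleen. In whole spleen 7 of the 10 were at 0 in at least 1 sample, so those that passed the filter on low counts did so mainly through the size-selected group, and their calls are not counted as support for the label. Sox10, a defining glial transcription factor, had too few counts to be tested. Fibroblast and smooth muscle markers were also low in whole spleen (sums of 5.02 to 57.6 and 8.36 to 69.2 CPM) and reached 1061 to 3664 and 765 to 3638 CPM in the size-selected group. Markers of other cells moved too, and these are bulk samples in which fewer cells of a type and less RNA per cell cannot be told apart. Over all genes tested, edgeR called 37.5% higher and 30.4% lower (adjusted p under 0.05). Markers were higher for 6 of 11 macrophage, 3 of 3 marginal zone macrophage and 6 of 6 tested endothelial genes, with none lower. Markers were lower for 7 of 9 B cell, 7 of 8 T cell, 5 of 6 plasmacytoid dendritic cell and 3 of 6 erythroid genes, with none higher. Neutrophil markers split into 1 higher and 5 lower of 7, conventional dendritic cell markers into 1 and 3 of 7, and monocyte markers into 3 and 2 of 5. With the shared number as a block, 7 macrophage markers were called higher, and 8 B cell, 4 conventional dendritic cell and 5 erythroid markers lower, while the T cell markers had 7 lower and 1 higher. Of 9 genes that respond to tissue dissociation, 8 were higher. The deposited size-selected values of 43 of the 100 marker genes had been multiplied by constants below 1, and the counts and sums above are as deposited. On counts restored by dividing the constants out, the lists named above had the same number of genes called in each direction, except that 2 of 6 erythroid markers were lower and 2 of 5 monocyte markers higher.

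Toll-like receptors are membrane proteins with a leucine-rich ectodomain that binds microbial molecules and a cytoplasmic TIR domain that recruits the adaptors MyD88 or TRIF, which switch on NF-kappa B and interferon regulatory factors. The surface receptors mostly bind lipids and proteins of microbes, and the endosomal receptors bind nucleic acids. In spleen they are known from macrophages, monocytes, dendritic cells and B cells, and some also from stromal and endothelial cells.

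Receptor levels were mostly higher in the size-selected group, in both compartments. Of the 10 receptors, 8 rose, 1 fell and 1 was not called by edgeR's quasi-likelihood test at an adjusted p under 0.05. Over all 14510 genes tested, 37.5% were called higher and 30.4% lower, 67.9% in all, so a call in this comparison was common. The level of the filter on low counts (10 counts at the median library size) was reached in all 8 samples of both groups by 6 receptors, of which 5 rose and none fell. Tlr5 reached it in 1, Tlr3 in 4 and Tlr8 in 7 of 8 whole spleen samples, and Tlr9 in 7 of 8 size-selected ones. These 4 passed the filter only with the group in which they are higher, so their calls are given as descriptions and the counts that include them support nothing further. The 5 that rose at the filter level in every sample include Tlr6, whose count is uncertain because reads are shared with Tlr1, as described below. The median log2 fold change over all 10 receptors, these 4 included, was 1.12, beside 0.05 for all genes tested. Over the 6 receptors at the filter level in every sample it was 0.77. The surface receptors had 4 of 5 called higher with a median of 1.37. At the filter level in every sample they had 3 of 4 higher, Tlr6 among them, with a median of 1.00. The endosomal receptors had 4 of 5 higher and 1 of 5 lower with a median of 0.88. Of these, 2 of the 2 at that level were higher, with a median of 0.77. The levels of 4 receptors (Tlr2, Tlr3, Tlr4 and Tlr5) did not overlap between the groups, all higher in the size-selected one, and 2 of these (Tlr2 and Tlr4) were at the filter level in every sample. Of all genes, 23.3% were non-overlapping and higher and 11.6% non-overlapping and lower. In 7 of 10 receptors every one of the 8 numbers was higher in its size-selected sample, as in 31.3% of all genes. Scaling by library totals alone raised the median of all genes by 0.13 log2 and left the same counts of receptors called.

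**Figure D1:**
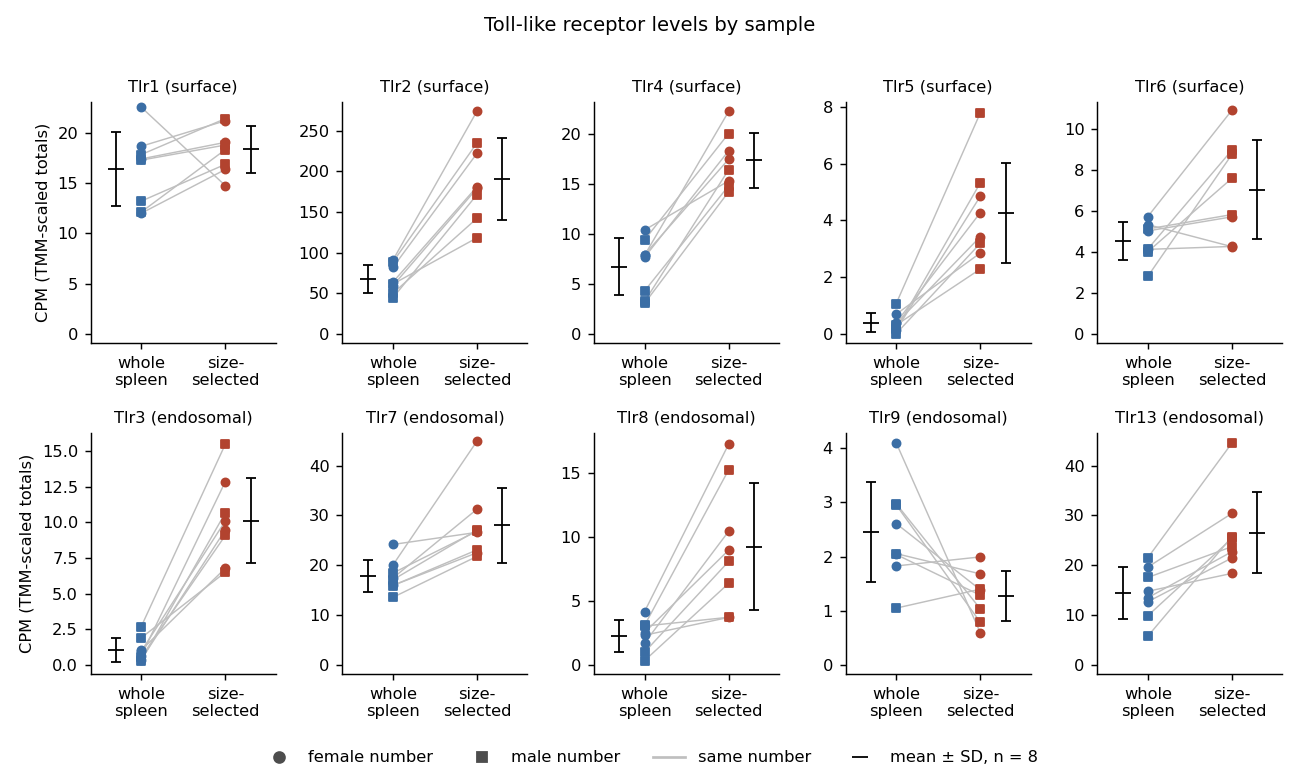
CPM of each receptor in whole spleen (blue) and size-selected samples (red), with a grey line between samples of the same number, circles for female and squares for male numbers, and the mean ± SD (n = 8) beside each group. Tlr2, Tlr3, Tlr4 and Tlr5 separate fully, Tlr1 overlaps (18.4 against 16.4 CPM), and Tlr9 is the receptor whose mean is lower in the size-selected group (1.27 against 2.45 CPM).

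The upstream sequences of 4 receptors are shown because they stand for the patterns in the data: Tlr2 has the highest level, Tlr5 and Tlr3 the largest rises in the surface and endosomal group, and Tlr9 fell. Each is a RefSeq window on GRCm38.p6, 250 bases before to 50 after an annotated start, read 5′ to 3′ on the gene's strand. In the first 3, capitals mark GGG and CC with any 5 bases between them, a loose NF-kappa B-like pattern, on either strand, with overlapping matches joined. In Tlr9, capitals mark GAGGAA, the core of the PU box bound by ETS factors, on either strand.
Tlr2, chr3:83841559-83841858, minus strand: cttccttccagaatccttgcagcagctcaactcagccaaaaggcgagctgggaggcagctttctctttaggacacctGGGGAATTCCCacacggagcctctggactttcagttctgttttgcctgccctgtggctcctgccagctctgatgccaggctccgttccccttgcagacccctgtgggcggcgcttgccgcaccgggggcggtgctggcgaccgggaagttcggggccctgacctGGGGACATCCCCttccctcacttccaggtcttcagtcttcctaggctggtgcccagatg
Tlr5, chr1:182954538-182954837, plus strand: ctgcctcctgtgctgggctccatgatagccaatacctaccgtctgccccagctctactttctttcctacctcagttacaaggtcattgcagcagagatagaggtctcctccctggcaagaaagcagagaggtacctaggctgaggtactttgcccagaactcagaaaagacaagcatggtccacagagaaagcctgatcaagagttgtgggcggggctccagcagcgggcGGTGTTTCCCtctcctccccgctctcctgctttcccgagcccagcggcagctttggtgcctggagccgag
Tlr3, chr8:45410331-45410630, minus strand: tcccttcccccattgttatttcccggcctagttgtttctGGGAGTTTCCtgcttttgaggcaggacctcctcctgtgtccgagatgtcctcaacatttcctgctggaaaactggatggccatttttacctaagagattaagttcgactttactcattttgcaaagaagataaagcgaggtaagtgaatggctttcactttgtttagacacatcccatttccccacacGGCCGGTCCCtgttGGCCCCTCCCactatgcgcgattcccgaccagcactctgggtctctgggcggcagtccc
Tlr9, chr9:106222348-106222647, plus strand: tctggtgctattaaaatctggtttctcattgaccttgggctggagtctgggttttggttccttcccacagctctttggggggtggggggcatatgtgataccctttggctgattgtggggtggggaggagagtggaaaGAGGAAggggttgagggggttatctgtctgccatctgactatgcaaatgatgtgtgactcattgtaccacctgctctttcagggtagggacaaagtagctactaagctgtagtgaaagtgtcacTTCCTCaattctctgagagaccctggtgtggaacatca

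Windows were found for 8 of the 10 receptors, 10 windows in all, with none matched for Tlr4 and Tlr7. The NF-kappa B-like pattern was present for 4 receptors (Tlr2, Tlr3, Tlr5 and Tlr6) and in 50.8% of all 32851 windows of the table. GAGGAA was present for 4 receptors (Tlr1, Tlr8, Tlr9 and Tlr13) and in 28.3% of all windows. An interferon response-like pattern, GAAA and GAAA with any 2 bases between them, was found for Tlr6 only among these receptors (3.44% of all windows), and TATAAA for Tlr6 and Tlr8 (13.6% of all windows). The receptors that rose included some with and some without each of the first 2 patterns. A match describes letters in a window and is not evidence of binding.

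Among the surface receptors, Tlr2 was the most abundant and rose clearly. Tlr2 pairs with Tlr1 or Tlr6 to bind bacterial lipopeptides, and its gene lies on chromosome 3, 83836272 to 83841767, minus strand (GRCm38). The size-selected samples held 118 to 274 CPM with a median of 180, and whole spleen 44.1 to 90.5 with a median of 62.3. The groups did not overlap, and sample 460 was highest in both. The means were 191 ± 50.9 and 67.2 ± 17.5 CPM (SD, n = 8), a difference of 1.50 log2 units (SE 0.18, edgeR adjusted p = 6.26e-07). Between samples of one number the ratio ran from 1.93 to 3.89.

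Tlr4, the lipopolysaccharide receptor, also separated fully. Its gene is on chromosome 4, 66827584 to 66930284, plus strand. The size-selected samples ran from 14.2 to 22.3 CPM (median 16.9) and whole spleen from 3.03 to 10.4 (median 7.74). Every size-selected sample was above every whole spleen sample, and in whole spleen the 3 lowest values were those of males 407, 408 and 435. Means of 17.4 ± 2.77 and 6.71 ± 2.82 CPM (SD, n = 8) gave a difference of 1.37 log2 units (SE 0.23, edgeR adjusted p = 4.29e-05).

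Tlr5, which binds bacterial flagellin, had the largest fold change of the 10 receptors at a low level. The gene spans chromosome 1, 182954788 to 182976044, plus strand. Its size-selected samples held 2.28 to 7.80 CPM (median 3.85) and whole spleen 0 to 1.06 (median 0.332). The groups did not overlap. Number 427 was highest in both, and whole spleen sample 435 had 0 counts. The whole spleen values rest on 0 to 13 counts per sample, against 33 to 109 in the size-selected samples. Means were 4.25 ± 1.76 and 0.386 ± 0.342 CPM (SD, n = 8), a difference of 3.45 log2 units (SE 0.46, edgeR adjusted p = 2.53e-06). In the authors' deposited table Tlr5 was the only one of the 10 receptors, with a log2 fold change of 3.55, a standard error of 0.40, an adjusted p of 6.75e-18 (DESeq2 by its column names) and group mean TPM of 1.89 and 0.138. Of all the receptors and pathway genes examined here, that list held only Tlr5 and Il6. Absence from it is therefore not read as a lack of difference.

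Tlr1 and Tlr6 sit side by side on chromosome 5, minus strand, at 64924679 to 64933563 and 64952031 to 64960097, and each pairs with Tlr2. Their transcripts are alike enough that reads can be split between them. Of the 50-base stretches of Tlr1's exons 13.6% also occur in Tlr6, and 12.3% the other way. The longest run that both coding sequences share is 229 bases, shown because a read inside it cannot be given to either gene. It covers coding positions 1468 to 1696 of 2385 in Tlr1 (chr5:64925537-64925765) and 1507 to 1735 of 2418 in Tlr6 (chr5:64953828-64954056), GENCODE M21 on GRCm38.
Tlr1 and Tlr6 shared run, minus strand: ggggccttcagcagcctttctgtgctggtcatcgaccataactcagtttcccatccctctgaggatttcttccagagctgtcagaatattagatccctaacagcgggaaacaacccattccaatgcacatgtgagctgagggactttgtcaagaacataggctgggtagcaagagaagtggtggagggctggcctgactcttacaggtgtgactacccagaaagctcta

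The estimated counts carried that sharing. For the other 8 receptors the deposited value was a whole number in all 16 samples, while for Tlr1 and Tlr6 it was whole in 0 of 16, and their sum was whole in every sample. Each of these 2 genes is therefore reported as uncertain, and their sum is given too. Summed, they reached 20.5 to 32.2 CPM in the size-selected group (median 24.6) and 14.9 to 27.6 in whole spleen (median 21.8). The groups overlapped, and 7 of 8 numbers were higher in the size-selected sample. The means were 25.4 ± 4.25 and 20.9 ± 4.20 CPM (SD, n = 8), a ratio of 1.21.

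Taken as deposited, Tlr1 did not pass the test. It held 14.8 to 21.5 CPM in the size-selected samples (median 18.6) and 12.0 to 22.6 in whole spleen (median 17.4). The groups overlapped, and 7 of 8 numbers were higher in the size-selected sample; number 445 went the other way, from 22.6 to 14.8. Means of 18.4 ± 2.32 and 16.4 ± 3.69 CPM (SD, n = 8) gave a difference of 0.16 log2 units (SE 0.14, edgeR adjusted p = 0.304). Its adjusted p ranged from 0.0591 to 0.975 over 21 alternative fits, none of which called it.

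Tlr6 rose by less than Tlr2, Tlr4 or Tlr5 as deposited. It held 4.24 to 10.9 CPM in the size-selected samples (median 6.70) and 2.80 to 5.72 in whole spleen (median 4.57). The groups overlapped, and the size-selected samples of females 436, 445 and 447 lay inside the whole spleen range. Means were 7.03 ± 2.41 and 4.53 ± 0.942 CPM (SD, n = 8), a difference of 0.63 log2 units (SE 0.22, edgeR adjusted p = 0.0144). The call was lost without number 407 (log2 fold change 0.51, edgeR adjusted p = 0.0567) and in females alone (0.31, adjusted p = 0.411). Tlr6 took 27.1 ± 5.71% of the pair's sum in the size-selected group and 21.9 ± 4.16% in whole spleen (SD, n = 8).

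Of the endosomal receptors, Tlr3 rose most. Tlr3 binds double-stranded RNA and signals through TRIF, and its gene lies on chromosome 8, 45395665 to 45411080, minus strand. The size-selected samples held 6.50 to 15.5 CPM (median 9.78) and whole spleen 0.311 to 2.69 (median 0.804). The groups did not overlap, and number 427 was highest in both. Means of 10.1 ± 2.98 and 1.06 ± 0.831 CPM (SD, n = 8) gave a difference of 3.25 log2 units (SE 0.37, edgeR adjusted p = 3.25e-07). Its whole spleen values rest on 4 to 33 counts per sample. An antisense gene, Gm45542, overlaps its exons and had 2 counts over the 8 size-selected samples and 0 over whole spleen.

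Tlr8, the X-linked relative of Tlr7, rose in every number with wide spread. The gene is at 167242696 to 167264329 on the X chromosome, minus strand. It held 3.73 to 17.3 CPM in the size-selected samples (median 8.54) and 0.350 to 4.18 in whole spleen (median 2.44). The ranges touched only because size-selected samples 408 and 445 lay below whole spleen sample 460. Means of 9.23 ± 4.96 and 2.29 ± 1.23 CPM (SD, n = 8) gave a difference of 2.01 log2 units (SE 0.40, edgeR adjusted p = 2.36e-04). The ratio within a number ran from 1.22 to 18.2, and the whole spleen values rest on 5 to 65 counts per sample, with the 5 in number 435, where the ratio was highest.

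Tlr13 and Tlr7 rose by smaller amounts from higher levels. Tlr13, a mouse receptor for bacterial ribosomal RNA, is at 106143204 to 106160493 on the X chromosome, plus strand. It held 18.4 to 44.5 CPM in the size-selected samples (median 24.6) and 5.81 to 21.5 in whole spleen (median 14.2). The groups overlapped, and all 8 numbers were higher in the size-selected sample. Means of 26.6 ± 8.06 and 14.4 ± 5.16 CPM (SD, n = 8) gave a difference of 0.88 log2 units (SE 0.23, edgeR adjusted p = 0.00216). Tlr7, which binds single-stranded RNA, is at 167304929 to 167330558 on the X chromosome, minus strand. It held 21.8 to 44.9 CPM in the size-selected samples (median 26.7) and 13.6 to 24.2 in whole spleen (median 17.3). Here too the groups overlapped while all 8 numbers were higher, and sample 460 stood above the other size-selected samples. Means of 28.0 ± 7.49 and 17.8 ± 3.20 CPM (SD, n = 8) gave a difference of 0.65 log2 units (SE 0.15, edgeR adjusted p = 9.12e-04). Tlr7 and Tlr8 shared 0 of their 50-base stretches.

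Tlr9, the receptor for unmethylated CpG DNA, was the only one of the 10 that fell. Its gene is on chromosome 9, 106222598 to 106226883, plus strand. It held 0.599 to 2.00 CPM in the size-selected samples (median 1.34) and 1.05 to 4.10 in whole spleen (median 2.33), from 11 to 35 and 15 to 57 counts per sample. The groups overlapped, and it was lower in 6 of 8 numbers, with 435 and 447 the other way. Means of 1.27 ± 0.457 and 2.45 ± 0.921 CPM (SD, n = 8) gave a difference of -0.94 log2 units (SE 0.29, edgeR adjusted p = 0.00792). The call was lost in males alone (-1.05, edgeR adjusted p = 0.0719) and in females alone (-0.91, adjusted p = 0.0796), and the gene did not pass a minimum count of 30.

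**Figure D2:**
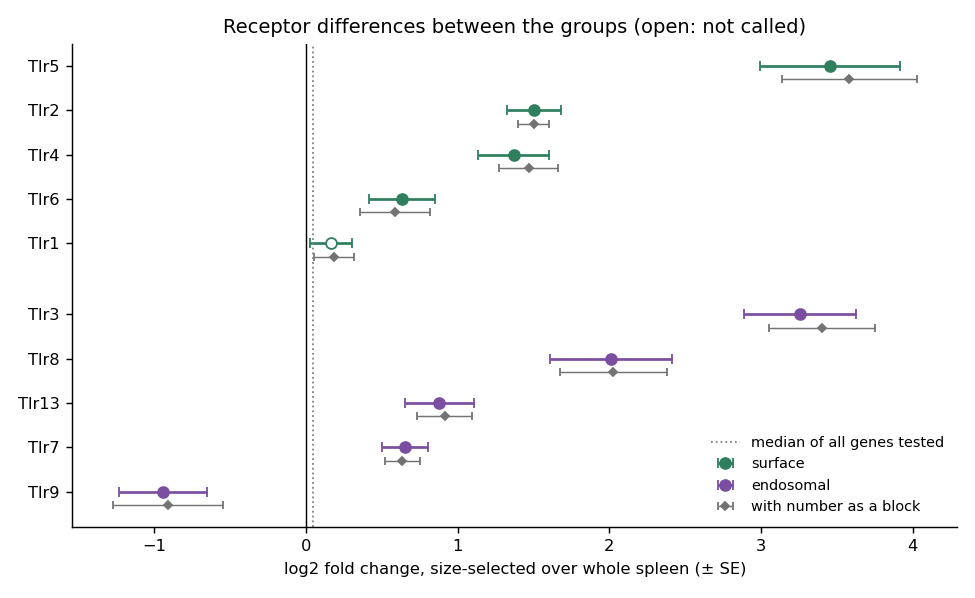
Log2 fold change of each receptor, size-selected over whole spleen, with its standard error, in green for surface and purple for endosomal receptors. Grey diamonds give the fit with the number as a block and the dotted line is the median of all genes tested (0.05). Tlr5 (3.45) and Tlr3 (3.25) lie farthest to the right, Tlr1 is open because it was not called, and Tlr9 (-0.94) lies left of 0.

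Levels were compared between receptors per length, as CPM per kb of exon. In the size-selected group Tlr2 stood at 63.2 ± 16.9 CPM per kb (SD, n = 8), above Tlr7 at 6.86 ± 1.83 in all 8 samples with no overlap of the ranges. Tlr7, Tlr13 (6.17 ± 1.87) and Tlr1 (5.49 ± 0.693) followed and overlapped as neighbours. Tlr1 lay above Tlr4 (3.12 ± 0.498) with no overlap. Tlr4, Tlr8 (2.58 ± 1.38), Tlr3 (1.94 ± 0.571), Tlr6 (1.89 ± 0.647) and Tlr5 (0.888 ± 0.368) overlapped each with the next, although Tlr6 was above Tlr5 in all 8 samples. Tlr9 was lowest at 0.366 ± 0.131 CPM per kb and below Tlr5 in all 8 samples.

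The order in whole spleen differed in the upper and the lower part. Tlr2 led at 22.3 ± 5.82 CPM per kb (SD, n = 8) with no overlap with Tlr1 at 4.90 ± 1.10. Tlr1, Tlr7 (4.37 ± 0.783) and Tlr13 (3.36 ± 1.20) overlapped as neighbours, and Tlr13 was above Tlr6 (1.21 ± 0.253) in all 8 samples. Tlr6, Tlr4 (1.21 ± 0.508), Tlr9 (0.705 ± 0.265), Tlr8 (0.638 ± 0.343), Tlr3 (0.204 ± 0.160) and Tlr5 (0.0805 ± 0.0715) each overlapped the next. Tlr1 ranked just above Tlr7 and Tlr13 in whole spleen and just below both in the size-selected group, and its range overlapped that of the neighbour in each (Tlr7 and Tlr13). Tlr9 ranked seventh in whole spleen and last in the size-selected group, and Tlr3 and Tlr5 were the lowest pair in whole spleen.

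Summed per length, both compartments were higher in the size-selected samples. The surface receptors summed to 74.6 ± 17.5 CPM per kb against 29.7 ± 6.86 in whole spleen (SD, n = 8), and the endosomal receptors to 17.9 ± 4.41 against 9.27 ± 1.83. Within a number, the ratio was 1.79 to 3.49 (median 2.52) for the surface sum and 1.42 to 2.74 (median 1.88) for the endosomal sum. Without Tlr2 the surface ratio was 1.00 to 2.32 (median 1.61), so the larger surface rise rested on Tlr2. The endosomal share of the total was 15.1 to 21.8% in the size-selected group (19.5 ± 2.26%) and 20.5 to 31.9% in whole spleen (24.0 ± 3.58%), with overlapping ranges. Tlr2 alone made up 67.8 ± 4.31% and 56.7 ± 3.23% of the summed level. Without Tlr2 the order of the shares turned, to 60.6 ± 3.65% in the size-selected group and 55.5 ± 6.30% in whole spleen, again overlapping. Within a number, the share over all 10 was lower in the size-selected sample except in 408 and 435. The share without Tlr2 was higher there except in 407. No test was made on these sums.

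**Figure D3:**
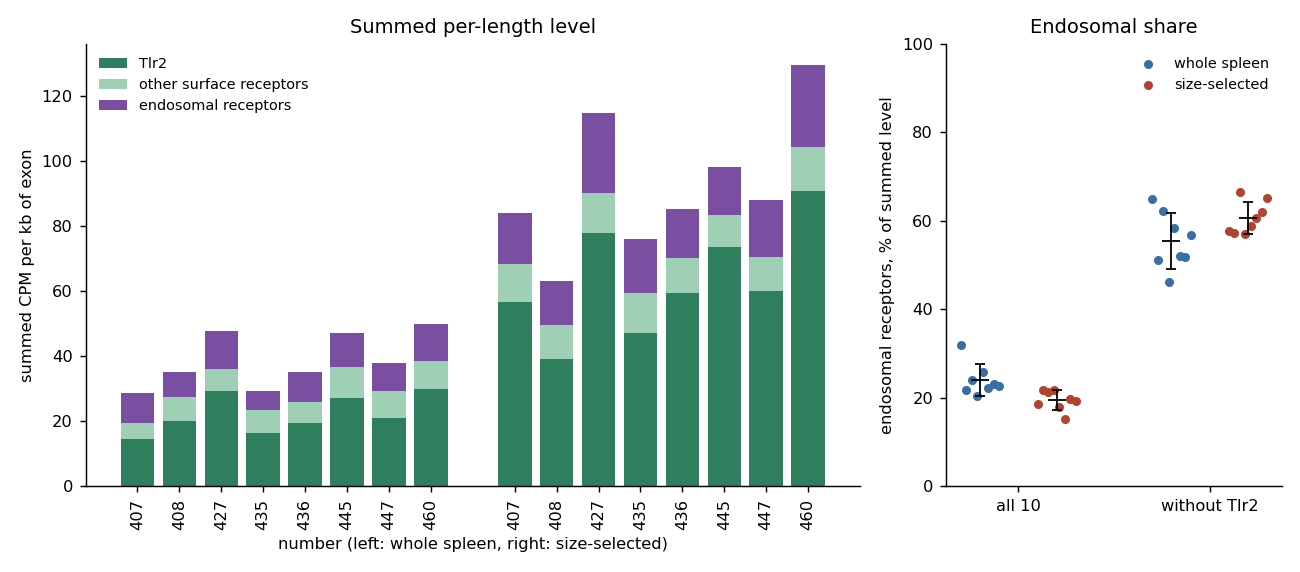
Left: summed CPM per kb of exon in each sample by number, stacked as Tlr2, the other surface receptors and the endosomal receptors. Right: the endosomal share of the summed level in percent for all 10 receptors and without Tlr2, with points for samples and mean ± SD (n = 8). The share is 19.5% against 24.0% with all receptors and 60.6% against 55.5% without Tlr2.

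Markers of the cells known for these receptors did not all move in one direction. The summed level of 11 macrophage markers was 3987 to 9213 CPM in the size-selected samples and 2408 to 4227 in whole spleen, and the 3 marginal zone macrophage markers summed to 326 to 1077 against 29.2 to 175. Endothelial markers summed to 587 to 1485 against 80.6 to 187 CPM, and fibroblast markers to 1061 to 3664 against 5.02 to 57.6. Monocyte markers summed to 177 to 318 against 160 to 351 CPM and were higher in 3 of 8 numbers. Conventional dendritic cell markers summed to 129 to 178 against 91.8 to 152 CPM, although more of them were called lower than higher, and neutrophil markers to 136 to 473 against 403 to 1106. Beside the fall of Tlr9, B cell markers summed to 1085 to 3825 against 5817 to 7104 CPM and plasmacytoid dendritic cell markers to 312 to 841 against 1126 to 1731. Of the plasmacytoid dendritic cell markers 5 were called lower, and Siglech was not called. No marker of these lists was at 0 in every sample of a group. Dissociation-response genes summed to 3671 to 7271 against 1346 to 2041 CPM. The part of these cell types and of dissociation in the receptor differences was not tested.

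Of the mouse receptors outside the 10, Tlr12, an endosomal receptor for profilin, rose and Tlr11, its partner, was low, at 1 to 51 counts per whole spleen sample. Tlr12 held 20.4 ± 9.02 against 6.33 ± 1.56 CPM (SD, n = 8) with no overlap, a difference of 1.69 log2 units (edgeR adjusted p = 4.52e-06). Tlr11 held 0.728 ± 0.361 against 0.930 ± 1.15 CPM (SD, n = 8), a difference of -0.35 log2 units (edgeR adjusted p = 0.608).

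Across the pathway, 59 other genes in 8 lists were examined, of which 58 were tested: 26 rose, 11 fell and 21 were not called. Over all genes 37.5% rose and 30.4% fell, and each list's counts below are to be read beside those shares. The median log2 fold change of the 58 was 0.24. With the number as a block, 28 rose and 11 fell, where 38.1% and 31.3% of all genes were called higher and lower. All 37 called genes kept their direction under 12 alternative fits, and 19 of them were called in every one. The other 18 each lost the call in males alone (4 samples a group), and 5 of them also in females alone. The deposited size-selected values of 13 of the 59 genes, and of none of the 10 receptors, had been multiplied by constants below 1, which lowers their fold changes.

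Co-receptors were split between the list's members, with 3 of 6 higher and 2 lower. Cd36, a scavenger receptor that assists Tlr2, rose from 161 ± 23.0 to 981 ± 257 CPM (SD, n = 8), by 2.61 on the log2 scale (edgeR adjusted p = 1.48e-10), and its groups did not overlap. Lbp, which carries lipopolysaccharide, rose by 2.68 (adjusted p = 3.31e-04), and Ly96, the MD-2 subunit of the Tlr4 complex, by 0.73 (adjusted p = 1.94e-04). Cd36 and Lbp are among the multiplied genes, and on restored counts they rose by 2.85 and 2.90 (edgeR adjusted p = 5.23e-11 and 1.43e-04). Cd180 and its partner Ly86, which form a Tlr4-like complex known from B cells, were lower in every number, with log2 fold changes of -0.59 (edgeR adjusted p = 0.00230) and -0.88 (adjusted p = 7.53e-06). Cd14, which hands lipopolysaccharide to the Tlr4 complex, was at 919 ± 474 against 756 ± 134 CPM (SD, n = 8) and was not called (0.28, edgeR adjusted p = 0.279). Within the Tlr4 complex, Tlr4 and Ly96 rose while the difference in Cd14 was within the spread between samples.

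Among genes that move and process the receptors, 3 of 8 were higher and none lower, and 3 of 8 is no more than the 37.5% of all genes called higher. Ctsl, a lysosomal protease that cleaves endosomal receptors, rose by 2.15 on the log2 scale (edgeR adjusted p = 8.55e-10), from 73.8 ± 9.88 to 328 ± 88.6 CPM (SD, n = 8). Cnpy4, a chaperone that helps bring Tlr4 to the surface, rose by 0.99 (adjusted p = 2.28e-05), and the protease Lgmn by 0.36 (adjusted p = 0.0496). As deposited, the call of Lgmn was lost with DESeq2's size factors in edgeR (adjusted p = 0.0644), with DESeq2 (0.0586) and with no count filter (0.122). Lgmn and Ctsl are among the multiplied genes, and on restored counts they rose by 0.44 and 2.23 (edgeR adjusted p = 0.0221 and 8.90e-10). Unc93b1, the escort of the endosomal receptors, held 550 ± 90.9 against 560 ± 129 CPM (SD, n = 8), a difference of -0.03 log2 units (edgeR adjusted p = 0.874). Hsp90b1, the endoplasmic reticulum chaperone that folds most of these receptors, was likewise not called (-0.08, adjusted p = 0.536), nor were Cnpy3, Ctss and Slc15a4. With the number as a block, Slc15a4, a transporter of endolysosomes, was called (0.21, edgeR adjusted p = 0.0313).

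Of the adaptors, 3 of 6 were higher and none lower. Myd88, the common adaptor, rose in every number from 88.5 ± 13.1 to 124 ± 15.1 CPM (SD, n = 8) with no overlap, by 0.48 on the log2 scale (edgeR adjusted p = 3.43e-04). Ticam2, which links Tlr4 to TRIF, rose by 0.65 (adjusted p = 0.00352), and Sarm1, a TIR protein with NAD-cleaving activity, by 1.28 (adjusted p = 0.00195) at a level of 1.62 CPM. Ticam1, which encodes TRIF, and Tirap and Pik3ap1 were not called. For kinases and ubiquitin ligases, 6 of 14 were higher and 2 lower, and most differences were small. Irak1 rose by 0.40 (edgeR adjusted p = 2.07e-04), Traf3 by 0.60 (adjusted p = 0.00369) and Traf6 by 0.52 (adjusted p = 0.00687). Tab1 (0.47), Map3k7 (0.36) and Tbk1 (0.34) were called with adjusted p of 0.0433, 0.0278 and 0.0317 and carry no constants themselves. In the fit with the other genes' counts restored to the values before multiplication, their log2 fold changes were 0.41, 0.31 and 0.29 and their edgeR adjusted p 0.0694, 0.0580 and 0.0668. All 3 also lost the call with no count filter, and Tab1 with DESeq2's size factors in edgeR (adjusted p = 0.0513) and limma-voom (0.0565).

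Tab2, an adaptor of the TAK1 kinase, fell from 46.5 ± 12.0 to 13.6 ± 2.71 CPM (SD, n = 8) with no overlap, a difference of -1.78 log2 units (edgeR adjusted p = 2.97e-08). Its size-selected values are among the multiplied ones, and on restored counts the log2 fold change was -1.53 (edgeR adjusted p = 2.36e-07). Ikbkg, the regulatory subunit of the I kappa B kinase, fell by 0.39 (adjusted p = 0.00119) and was not called on restored counts (-0.14, edgeR adjusted p = 0.174). Chuk, a catalytic subunit of that kinase, was called with the number as a block (0.29, edgeR adjusted p = 0.0477) and not without (0.30, adjusted p = 0.0760). Irak2, Irak4, Tab3 and Ikbkb were not called. Ikbke, an I kappa B kinase-related kinase that carries no constants, was not called as deposited (-0.37, edgeR adjusted p = 0.0655) and was called lower in the fit on restored counts (-0.43, adjusted p = 0.0396).

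Of the pathway's transcription factors, 4 of 6 were lower and 1 higher, beside 30.4% and 37.5% of all genes. Nfkb1, the p105/p50 subunit, fell from 185 ± 30.4 to 80.0 ± 15.2 CPM (SD, n = 8) with no overlap, a difference of -1.21 log2 units (edgeR adjusted p = 1.44e-07). Irf5 fell by 0.56 (edgeR adjusted p = 6.74e-04) and Rel, the c-Rel subunit prominent in lymphocytes, by 0.41 (adjusted p = 0.0130). Irf3 fell by 0.81 (adjusted p = 1.12e-06), and fell by 0.56 on restored counts (edgeR adjusted p = 5.75e-05). Rela, the p65 subunit, rose by 0.21 (adjusted p = 0.0107; 0.135 with no count filter), and Irf7 was not called. Of the genes that restrain the pathway, 5 of 7 were higher and 1 lower, beside 37.5% and 30.4% of all genes, and the difference between the lists was not tested. Nfkbia, the NF-kappa B inhibitor, rose by 1.03 (edgeR adjusted p = 7.99e-07), Tollip by 0.97 (adjusted p = 2.55e-06) and Tnfaip3, the A20 deubiquitinase, by 0.88 (adjusted p = 1.35e-05), each with no overlap. Socs1 rose by 0.55 (adjusted p = 0.00177) and Sigirr by 0.37 (adjusted p = 0.0435), while Irak3 fell by 0.41 (adjusted p = 0.0192). Sigirr is among the multiplied genes, and on restored counts it rose by 0.78 (edgeR adjusted p = 2.92e-04). As deposited its call was lost with DESeq2's size factors in edgeR (adjusted p = 0.0601), with DESeq2 (0.0528) and with no count filter (0.123). The call of Irak3 was lost without number 427 or 445 (edgeR adjusted p = 0.0564 and 0.142), and those of Irak3 and Rel with scaling by library totals (0.150 and 0.103).

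Inducible targets did not move as one. Il6 rose from 7.88 ± 3.04 to 198 ± 122 CPM (SD, n = 8) with no overlap, by 4.65 on the log2 scale (edgeR adjusted p = 2.33e-09), and the authors' deposited table lists it at 4.68. Ptgs2, the inducible cyclooxygenase, rose by 2.68 (adjusted p = 6.57e-08), the neutrophil chemokine Cxcl1 by 2.59 (adjusted p = 6.03e-09) and Nfkbiz by 2.26 (adjusted p = 7.31e-10). Tnf fell by 0.81 (edgeR adjusted p = 2.19e-05) and was lower in every number as deposited. Its size-selected values are among those lowered by the constants, and on restored counts it fell by 0.41 (edgeR adjusted p = 0.00748). Ccl5, a chemokine made by T cells and others, fell by 1.97 (edgeR adjusted p = 1.37e-06). Il1b was not called, and Ifnb1 was too low to be tested. Il12b and Cxcl2 were not called as deposited (0.71 and 0.04, edgeR adjusted p = 0.0588 and 0.817). Both are among the multiplied genes, and on restored counts both were called higher (0.97 and 0.44, edgeR adjusted p = 0.0146 and 0.0154). As deposited, the 4 that rose and the 2 that fell all had groups that did not overlap, where 23.3% of all genes did not overlap and were higher and 11.6% did not overlap and were lower. Dissociation-response genes moved with those that rose (8 of 9 higher, median log2 fold change 3.05), as did fibroblast markers (sums of 1061 to 3664 against 5.02 to 57.6 CPM), and their part in the target differences was not tested.

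**Figure D4:**
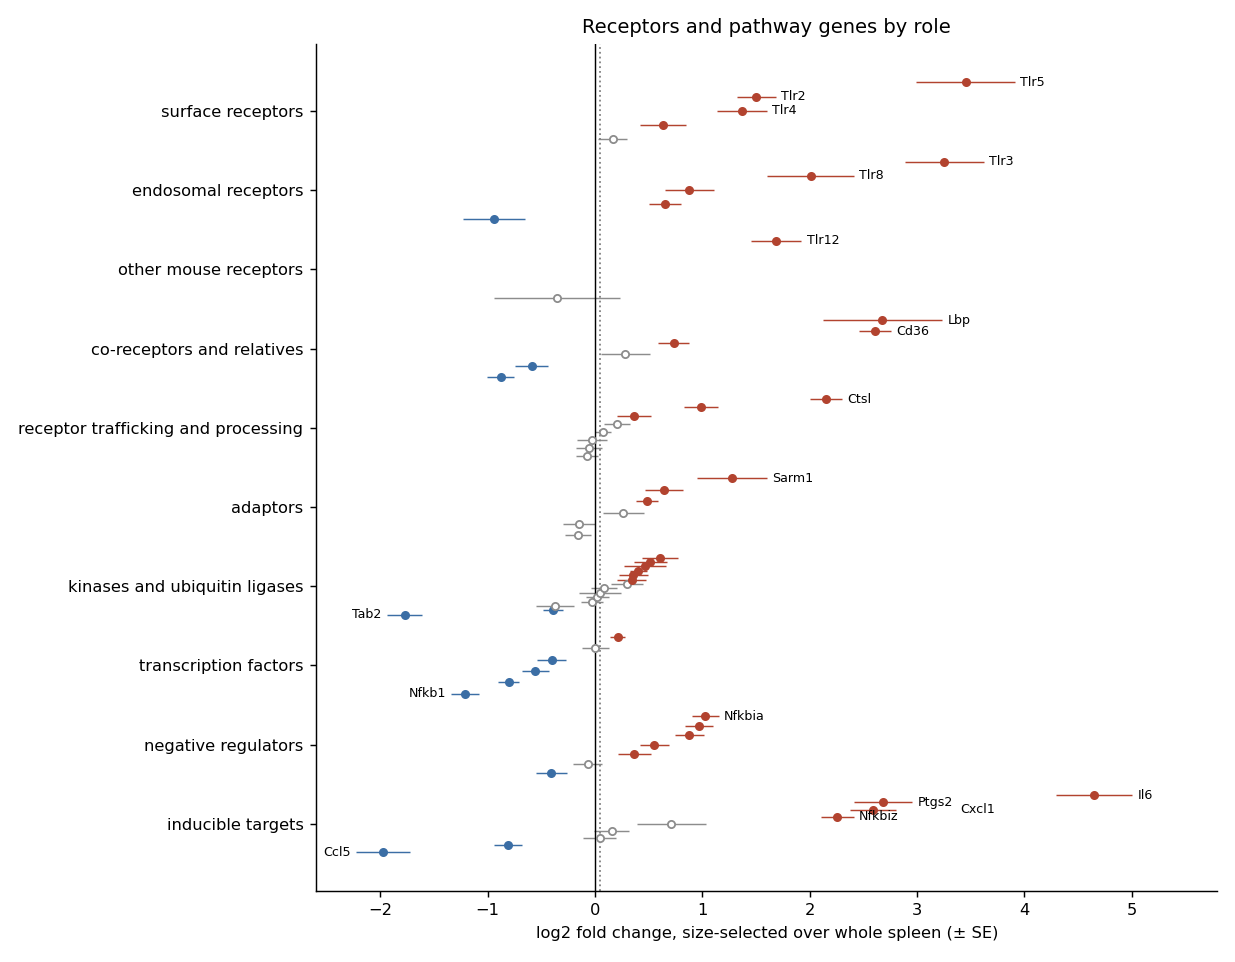
Log2 fold change (± SE) of each tested receptor and pathway gene, size-selected over whole spleen, grouped by role. Red and blue points were called higher and lower, open points were not called, and the dotted line is the median of all genes tested (0.05). Transcription factors lie mostly left of 0, with Nfkb1 at -1.21, and negative regulators mostly right of 0, with Nfkbia at 1.03.

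Tlr7, Tlr8 and Tlr13 are X-linked, so sex was examined with 4 female and 4 male numbers. In whole spleen Tlr7 was at 19.4 ± 3.60 CPM in females and 16.3 ± 2.06 in males (SD, n = 4), a female over male difference of 0.25 log2 units (SE 0.18, edgeR adjusted p = 0.503). In the size-selected group it was at 31.3 ± 9.72 and 24.7 ± 2.65 CPM, a difference of 0.32 log2 units (SE 0.22, edgeR adjusted p = 0.999). The female and male ranges of Tlr7 overlapped in both groups. For Tlr8 the log2 fold changes were 0.53 in whole spleen and 0.29 in the size-selected group, and for Tlr13 they were 0.15 and -0.37. No receptor was called by sex, among 9 tested in whole spleen and 10 in the size-selected group, where 0.194% and 0.0397% of all genes were called. The lowest unadjusted edgeR p of a receptor was 0.0447, for Tlr4 in whole spleen (log2 fold change 0.76, adjusted p = 0.301), and DESeq2 called no receptor either. Without number 427, Tlr4 was called higher in female whole spleen (1.27, edgeR adjusted p = 0.0321). The difference between the sexes in the fraction effect was tested as an interaction, with no receptor called (10 tested, unadjusted edgeR p from 0.154 to 0.890). Over all genes, edgeR without the number as a block called 0% of 15760, with 744 at an unadjusted p under 0.05. It called 3 genes with the block and 1 without number 445, and DESeq2 called 3, none of them a receptor.

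The genes whose profile over the 16 samples lay nearest to each receptor were found among 12128 genes whose log2 CPM averaged 1 or more, which leaves out Tlr5 and Tlr9 as neighbours, by the root mean square difference of centred log2 CPM. Tlr2 lay nearest to Tmem65 (0.19 log2), Tnfaip2 (0.20) and Slc36a4 (0.21), which differed between the groups by 1.52, 1.55 and 1.72 beside 1.50 for Tlr2. Tlr7 lay nearest to Arhgef11 (0.18), Cluh (0.19) and Pnpla7 (0.20), and Tlr1 to Ccz1 (0.18), M6pr (0.18) and Paics (0.18). For Tlr4 they were Ripor1 (0.27), Pcyox1 (0.31) and C2cd2 (0.32), and for Tlr13 Prodh (0.29), Atg9a (0.30) and Tmem104 (0.30). Tlr5 was nearest to Stard8 (0.31), Tlr6 to Wdr91 (0.32), Tlr9 to Kif20b (0.39), Tlr3 to Trim2 (0.44) and Tlr8 to Cdkn2b (0.46). These are descriptions over samples that differ mainly by group. None of the 8 receptors above that level was among the nearest 3 genes of another receptor.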

How the data were processed

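RNA-seq of 16 mouse spleen samples was analysed from the estimated counts per gene that the authors deposited. Trim Galore, STAR, RSEM, DESeq and mm10 are named in the submitters' processing notes, without versions. Per the file headers, a second deposited table holds the authors' mean signal per gene (base mean), log2 fold changes, a test score, p-values and group mean TPM and FPKM. The score, mean signal and FPKM were not used.

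Counts were rounded and tested with edgeR 4.0.16 (R 4.3.3): filterByExpr (minimum count 10), TMM scaling, quasi-likelihood F test, Benjamini-Hochberg over all genes, call at adjusted p under 0.05. CPM uses TMM-scaled totals; log2 CPM uses a prior count of 2. Alternatives used DESeq2 1.42.0 and limma 3.58.1. The size-selected values of 3898 genes carry up to 3 constants per column, found from the values alone; dividing them out gave the restored counts. The numbers pair the samples: deviations of same-numbered samples correlated in all 8 pairs (mean r 0.21, range 0.12 to 0.38; -0.03 between numbers). The fits were also run on simulated counts with far fewer changed genes than were called here, which cannot check the error rate of these calls. Annotation is GENCODE M21. All 10 receptors, the pathway lists and the markers are named; members and lists were chosen with earlier results of these data known.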

Additional observations from a re-analysis of the deposited data

How the results depend on the processing

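The receptor calls between the fractions kept their direction under every alternative tried. The number as a block changed no call of the 10 receptors (Tlr6 0.59, edgeR adjusted p = 0.0365; Tlr9 -0.91, adjusted p = 0.0403). Requiring an absolute log2 fold change of 1 left 4844 genes of 9855, 5 receptors higher and 0 lower. The count of receptors called lower was also 0 with a minimum count of 30, in males only and in females only. Over the 6 receptors at the filter level in every sample, a choice made after seeing the data, 5 were higher and 0 lower. The 5 include Tlr6, whose separate count is uncertain. Values that changed sign belong to uncalled genes: Tlr11 (0.33 with limma-voom, 0.13 with the replicate block), Cd14 (-0.10 in males), Hsp90b1 (0.048 with library totals) and Unc93b1 (0.10 with library totals, 0.13 in females, 0.020 without whole spleen sample 427, and -0.061 to 0.011 with each number left out). Between the sexes, with each number left out, they were Tlr13 in whole spleen (-0.10 to 0.46), Tlr8 in the size-selected group (-0.11 to 0.69) and the interaction for Tlr7 (-0.13 to 0.28).

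Genes called by sex in whole spleen numbered 26, and 518 with DESeq2, 273 with no count filter and 7 to 261 when each number was left out (17 without 407, 261 without 427, 12 without 435, 87 without 436, 8 without 445, 8 without 447 and 7 without 460), with 0 to 1 receptor called higher. In the size-selected group they numbered 6, and 22 with DESeq2. For the interaction they numbered 0, and 3 with DESeq2, 3 with the replicate block and 0 to 1 with each number left out (1 without 445). The endosomal share of the summed level was 13.6% and 16.9% without Tlr13, and 60.6% and 55.5% without Tlr2, in the size-selected group and whole spleen; leaving out Tlr2 was chosen after seeing the data. Of the pathway calls, those of Lgmn, Tab1 and Sigirr were kept in 2 of 8 fits that each left out a number, Map3k7 in 3 and Tbk1 in 4. Depth limits Tlr3, Tlr5, Tlr8, Tlr9 and Tlr11, where no whole spleen sample exceeded 65 counts. The counting error of those values is not separated from the spread between samples.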
